A study of Homo sapiens with 4 samples.

Results

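BRPF3 binding in cells released from mimosine into hydroxyurea (HU) was compared with BRPF3 binding in cells still held in mimosine, as seen in the peak lists of the 2 libraries. The comparison took every peak on chromosomes 1 to 22 of both lists, 13040 HU peaks and 11235 mimosine peaks. Together these were 24275 of the 38123 peaks in the 3 lists of the series. All libraries came from RKO, an established human colon carcinoma cell line, and chromatin was immunoprecipitated with a rabbit antibody against BRPF3 and sequenced (ChIP-seq). Mimosine cells were kept in 0.5 mM mimosine for 22 h. HU cells had the same treatment, were then released for 3 h and were given 3 mM HU for 1 h 30 min. Rabbit IgG chromatin from HU cells was the control of both lists, so the control matched the HU condition and not the mimosine condition. The antibody field and titles of both libraries give BRPF3 and were followed, although a description field gives BRPF1/2. Each condition had 1 library. With no replicate, no p-value is given for any difference between the lists, and the intervals given are exact (Clopper-Pearson) 95% intervals that cover counting error only.

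BRPF proteins are scaffolds that join a catalytic subunit of the MYST histone acetyltransferase family, such as HBO1 (KAT7), to ING and MEAF6 subunits, and they carry reader domains for modified histones. HBO1 takes its name from its binding to ORC1, a subunit of the origin recognition complex, and acetylates histone H3 and H4 tails. Mimosine, a plant amino acid that chelates iron, holds cells near the start of DNA replication. HU inhibits ribonucleotide reductase, so that forks that have started slow down or stall for lack of nucleotides. The comparison thus sets BRPF3 sites in arrested cells beside those in cells that were let go and then given a replication inhibitor. The lists hold positions only, and no gene table of their build (hg19) was used, so regions are given by position and not by gene.

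HU cells held the longer list and the wider peaks. HU peaks covered 42.6 Mb and mimosine peaks 24.1 Mb. Median peak width was 2920 bp (interquartile range 1966 to 4064 bp) in HU cells and 1877 bp (1204 to 2711 bp) in mimosine cells. The authors' score, read as 10 times the negative base-10 logarithm of the peak caller's p-value, had a median of 548 in the HU list and 281 in the mimosine list. Its lowest value was about 50 in both lists. Scores of 3100 or more, a range in which the score no longer resolves peaks, were held by 964 HU and 335 mimosine peaks.

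In the full lists, which differ in length, nearly all mimosine peaks had an HU partner, while 24.3% of HU peaks had no mimosine partner. Of the mimosine peaks, 11185 of 11235 (99.6%, interval 99.4 to 99.7%) overlapped an HU peak by at least 1 bp. Of the HU peaks, 9875 of 13040 (75.7%, interval 74.98 to 76.5%) overlapped a mimosine peak. The share without a partner was thus 24.3% of HU peaks and 0.445% of mimosine peaks. The asymmetry was similar under a score limit and smaller in lists cut to equal length. With scores of 100 or more in both lists, 99.9% of mimosine and 75.4% of HU peaks had a partner. With the 5617 top-scoring peaks of each list, 91.7% of mimosine and 89.6% of HU peaks had a partner. With the HU list limited to as many peaks as the whole mimosine list, the shares were 98.6% and 86.9%. In both of these cuts the lists were equally long, so the shares can differ only where 1 peak has several partners. Their closeness thus follows largely from the cut and does not measure the asymmetry. By length, 99.8% of the base pairs in mimosine peaks lay inside HU peaks, while 56.5% of the base pairs in HU peaks lay inside mimosine peaks. The read depth behind each list is unknown, and the lists of 2 libraries of unequal depth can differ in this way, so depth and condition cannot be told apart.

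Most of the length found only in HU cells lay on the flanks of shared sites and not at separate sites. HU peaks held 18.6 Mb that no mimosine peak covered. Outer flanks of HU peaks that had a mimosine partner made up 13.2 Mb of it (70.9%). HU peaks with no partner made up 4.999 Mb (26.9%). Gaps between mimosine peaks lying under the same HU peak made up 0.398 Mb (2.15%).

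The shape of this difference was read from exclusive pairs, in which a mimosine peak and an HU peak were each other's only partner. There were 8727 such pairs, holding 66.9% of HU peaks and 77.7% of mimosine peaks. Median width in the pairs was 1996 bp (interquartile range 1381 to 2802 bp) in mimosine cells and 3240 bp (2524 to 4243 bp) in HU cells. The mimosine peak lay wholly inside the HU peak in 8581 pairs (98.3%, interval 98.0 to 98.6%). In the other 146 pairs 1 edge of the HU peak fell short of the mimosine edge, and in 0 pairs did both edges fall short. The median ratio of mimosine to HU width was 0.630 (interquartile range 0.519 to 0.727). A ratio of 0.5 or less was found in 21.7% of pairs, and a ratio above 0.8 in 10.3%.

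Over all pairs, the HU peak reached outward by a similar median length at its lower- and higher-coordinate edges. Sides were set by coordinate alone, so these pooled values do not show even gains within single pairs. It passed its mimosine partner by a median of 533 bp (interquartile range 327 to 839 bp) at the lower-coordinate edge and 536 bp (330 to 848 bp) at the higher-coordinate edge. The lower edge gained more in 4342 pairs and the higher edge in 4379, with equal gains in 6. Both edges gained at least 200 bp in 7152 pairs (82.0%). The median distance between peak centres was 176 bp, and centres lay within 500 bp of each other in 88.0% of pairs. Within single pairs the edges were less even, since the gains at the 2 edges differed by a median of 352 bp (interquartile range 159 to 658 bp). The distance between centres follows from this same difference and is not a separate measure of evenness.

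**Figure D1:**
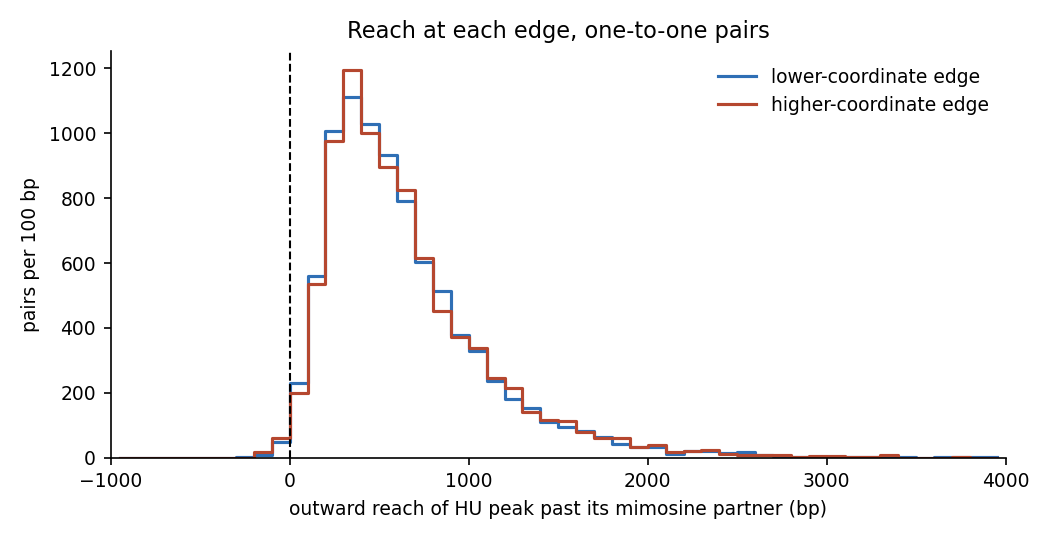
Outward reach of the HU peak past its mimosine partner (x axis, bp; values above 0 mean that the HU peak reaches further) against the number of exclusive pairs per 100 bp (y axis), with 1 line for each edge. The lines overlap closely, with medians of 533 and 536 bp, and few pairs lie below 0.

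The added width was close to a constant length rather than a constant proportion when pairs were sorted by their mimosine width. From the narrowest to the widest of 10 equal groups, median mimosine width rose from 746 to 4538 bp. The median width difference, HU minus mimosine, was 1149 bp in the narrowest group and 1449 bp in the widest, and it ranged from 1094 to 1268 bp in the others. The median width ratio went from 0.384 to 0.766 over the same groups. The flatness depended on how pairs were sorted. By HU width, the median difference went from 686 bp in the narrowest group to 2048 bp in the widest, and by the mean of both widths from 803 to 1719 bp. In all 3 sortings the difference grew by a smaller factor than the width itself, and the ratio was higher in the widest group than in the narrowest.

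**Figure D2:**
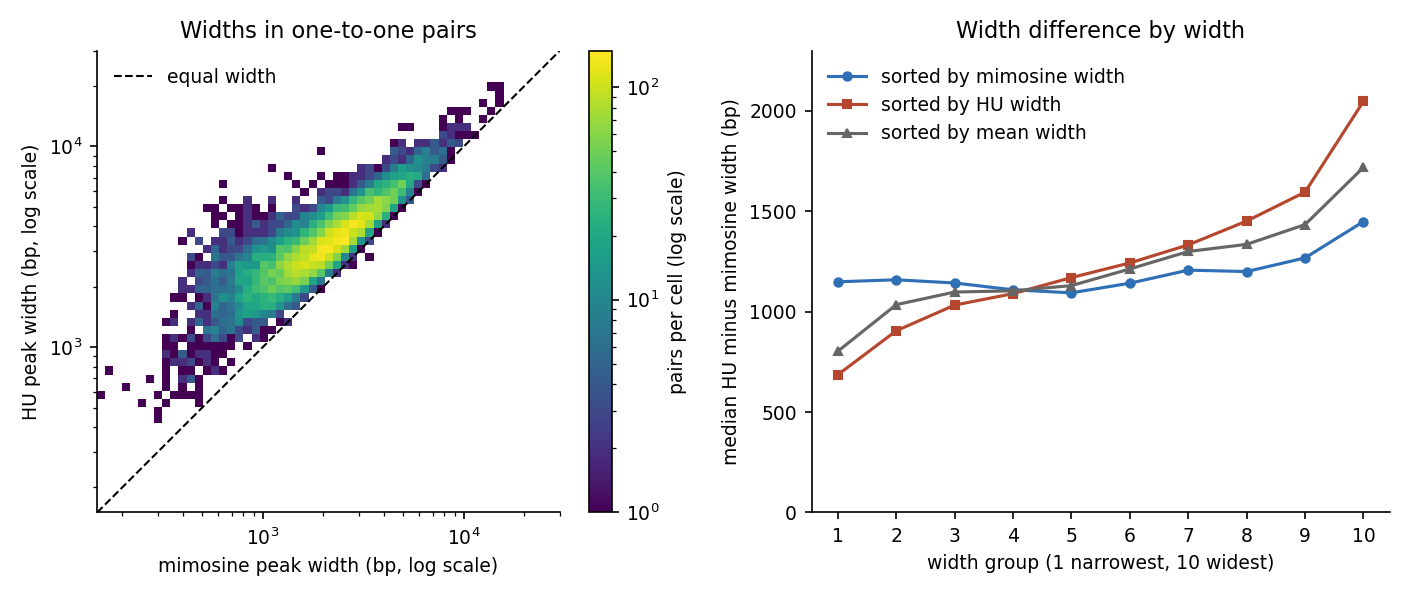
Left, mimosine against HU peak width in the 8727 exclusive pairs (one-to-one pairs; both axes in bp on log scales; colour, pairs per cell). Right, median HU minus mimosine width (y axis, bp) in 10 width groups of pairs sorted in 3 ways: nearly all pairs lie above the line of equal width, and the difference is flattest when sorted by mimosine width, from 1094 to 1449 bp.

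Pairs at the ends of the width ratio were named from those with both scores at 100 or more, leaving out chromosome 8. The lowest ratio was at chr4:166246551-166254162, where an HU peak of 7612 bp held a mimosine peak of 1146 bp, a ratio of 0.151. There the HU peak passed its partner by 878 bp on the lower side and 5588 bp on the higher side. The next lowest was chr1:15849584-15854796, with 5213 bp in HU and 828 bp in mimosine cells. It was followed by chr11:28127967-28132971 with 5005 and 866 bp, chr3:16304460-16309180 with 4721 and 940 bp, and chr12:58137703-58141431 with 3729 and 743 bp. At the other end, the mimosine peak was the wider in 5 of 8727 pairs (0.0573%). The highest ratio was 1.06 at chr19:12097737-12100301, where the mimosine peak of 2719 bp passed the HU peak of 2565 bp at its higher edge by 419 bp. At chr15:50976227-50980130 the widths were 4095 bp in mimosine and 3904 bp in HU cells, and at chr17:78118389-78122697 they were 4360 and 4309 bp. The 2 next pairs, chr17:43660333-43664596 and chr16:31711574-31712932, had ratios of 0.996 and 0.987. In all 5 of these pairs with the highest ratios the HU score was the higher.

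How many pairs extended mainly to 1 side was not counted. The 5 pairs named here were chosen for a large difference between edges, with chromosome 8 left out. Among them the largest difference was at chr20:34319697-34332758, an HU peak of 13062 bp whose mimosine partner spanned 5561 bp. The HU peak gained 6437 bp on the lower side and 1064 bp on the higher side, and here the mimosine score (2425) was above the HU score (1231). At chr1:112932877-112942712 the gains were 4971 and 522 bp, and at chr17:80225337-80231909 they were 4338 and 149 bp. At chr4:81224552-81231540 the gain lay on the higher side, with 231 and 4478 bp. The pair with the lowest width ratio, on chromosome 4, was also among these 5.

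Scores in exclusive pairs were higher in HU cells but followed the same order. Over the 7990 pairs with both scores below 3100, the HU score was the higher in 7894 (98.8%, interval 98.5 to 99.0%). The median ratio of mimosine to HU score was 0.438 (interquartile range 0.329 to 0.564). Spearman's rho between the scores was 0.937 over the 8727 pairs, with scores above 3100 set to 3100. This is a description across sites, which share the IgG control and are not replicates. Within-list rank percentile, which runs from the weakest peak to 100 at the strongest, differed by at most 10 points in 5525 pairs (63.3%).

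Sites whose rank differed strongly were mostly those ranked higher in HU cells. The rank was over 20 points higher in HU cells in 1028 pairs (11.8%) and over 20 points higher in mimosine cells in 22 (0.252%). Percentiles are not on equal terms in the lists, because the HU list holds a further set of weak peaks that puts its shared peaks higher. The 1028 pairs were also narrower than most in mimosine cells, with a median mimosine width of 1331 bp and a median width ratio of 0.493. Outside chromosome 8, the largest rank difference among them was at chr13:45693416-45696445, where the HU score was 1123 (rank percentile 71.9) and the mimosine score 75.2 (13.0). At chr14:50776856-50780566 the scores were 800 and 61.3, and at chr2:55745209-55749216 they were 796 and 64.0. At chr11:62604551-62609735 the score was 1725 in HU and 131 in mimosine cells, although the width ratio there was 0.757. At chr19:18496528-18499973 the score was 874 in HU and 68.0 in mimosine cells. The mimosine peak there spanned 392 bp under an HU peak of 3446 bp.

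Among sites that ranked higher in mimosine cells, the 5 with the largest rank difference outside chromosome 8 also had higher mimosine than HU scores in absolute terms. At chr17:43392010-43395572 the score was 568 in mimosine and 376 in HU cells (rank percentiles 69.5 and 39.8). At chr19:54484188-54486633 the scores were 353 and 216, and at chr11:11640183-11644245 they were 1102 and 705. At chr2:176865222-176867714 they were 369 and 277, and at chr11:566749-570058 they were 558 and 451. The mimosine peak was still the narrower at each of these sites, with ratios of 0.425 to 0.822. Over all pairs with both scores below 3100, the mimosine score was the higher in 96 (1.20%), and in 29 of these the HU score was below 100.

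HU peaks with no mimosine partner were weak and narrow. Their median score was 89.9 (interquartile range 64.0 to 139), against 818 (424 to 1592) for HU peaks with a partner. Their median width was 1427 bp (1053 to 1926 bp), against 3376 bp (2596 to 4455 bp). When HU peaks were put in 20 equal groups by score, recovery in mimosine cells went from 2.61% in the lowest group to 42.3% in the fifth (scores 137 to 188) and 65.0% in the sixth (188 to 246). It reached 92.3% in the eighth and stood at 99.5% or more from the eleventh on. In the fifth and sixth groups, the mimosine peaks of exclusive pairs had median scores of 75.01 and 83.1. Only called mimosine peaks enter these medians, so the medians do not show why other HU peaks lacked a partner. Over the 20 groups the median width ratio was lowest at 0.457 in the first, where 17 pairs were measured. It was 0.487 in the fifth and 0.753 in the last.

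**Figure D3:**
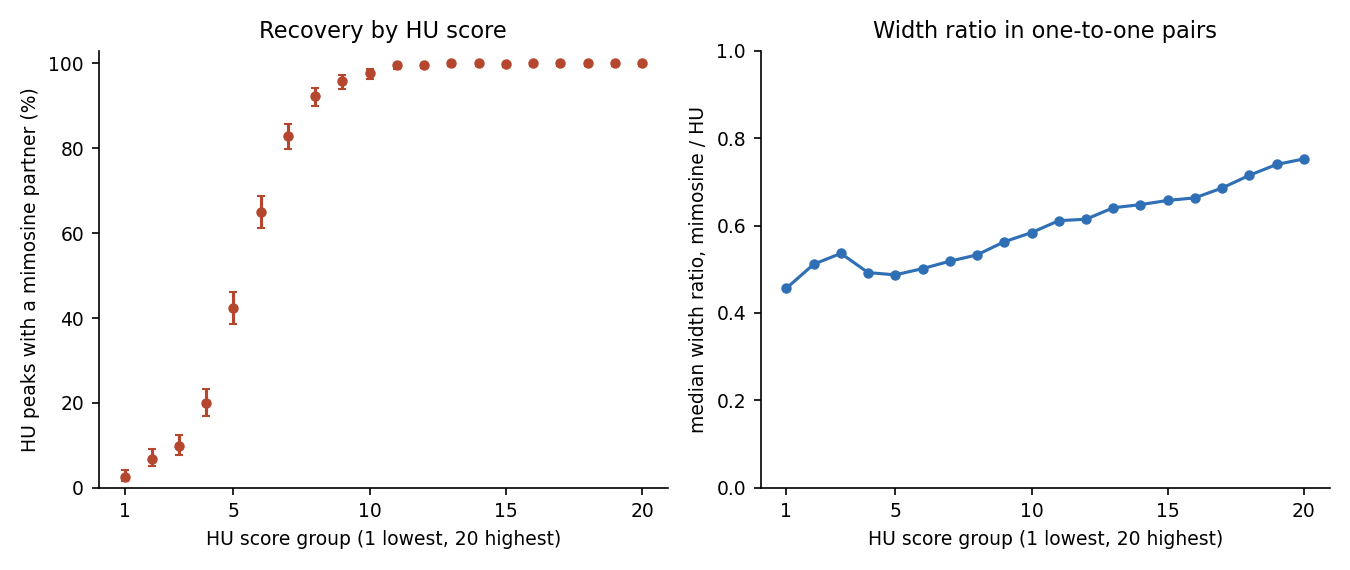
HU peaks in 20 equal groups by score (x axis, 1 lowest). Left, percentage with a mimosine partner and its 95% interval, which goes from 2.61% in the first group to 42.3% in the fifth and 92.3% in the eighth. Right, median mimosine to HU width ratio in the exclusive pairs (one-to-one pairs) of each group, 0.487 in the fifth and 0.753 in the last.

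From a score of 100 to under 500, wider HU peaks had a partner more often, and their scores were also somewhat higher. Below 100 the shares did not follow width in order, at 5.62%, 4.06% and 9.03% from the narrowest to the widest of 3 equal width groups. Among the 1459 HU peaks that scored from 100 to under 200, recovery was 23.7% (interval 19.95 to 27.7%) in the narrowest of 3 equal width groups and 44.8% (40.3 to 49.3%) in the widest. The median scores of these groups were 127 and 155. From 200 to under 500, recovery was 83.0% in the narrowest and 89.6% in the widest group, with median scores of 284 and 369. At 500 or more, 14 of 6861 HU peaks (0.204%, interval 0.112 to 0.342%) had no partner.

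Strong HU peaks with no mimosine partner were rare. A score of 1000 or more was held by 4122 HU peaks, and 1 of them had no partner. It lay at chr7:81250964-81256045, was 5082 bp wide and scored 1069. It was 91 bp from another HU peak and 1782 bp from the nearest mimosine peak. Leaving out chromosome 8, the next were chr4:83954678-83959010 with a score of 686, chr3:56590373-56593246 with 661, chr4:77702472-77705700 with 591 and chr15:55580640-55583159 with 582. These 4 stood further from mimosine peaks, at 20146, 122087, 163856 and 27111 bp.

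The strongest of these peaks lay in a chain of HU peaks on chromosome 7. The stretch chr7:81129858-81399826 was looked at after that peak had been found. It held 17 HU peaks of 106 kb in all and 22 mimosine peaks of 53.0 kb, and 10 of the 17 HU peaks had no partner. Apart from the strongest and chr7:81263884-81266211 (score 361), these 10 scored only from 51.6 to 157. Over all autosomes, 6.24% of HU peaks scoring below 100 and 32.8% of those from 100 to under 200 had a partner. Several HU peaks in the stretch were partly covered, for example chr7:81242640-81250872 over 31.9% and chr7:81266335-81272465 over 27.9% of their length. Others were covered nearly in full, such as chr7:81232256-81238973 over 90.2%. The fixed 5 Mb window around it, 80 to 85 Mb, had the lowest recovery of the 249 windows with at least 20 HU peaks, with 13 of 34 HU peaks (38.2%, interval 22.2 to 56.4%). Over the 249 windows the median was 76.9% (interquartile range 70 to 81.4%).

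Of the 3165 HU peaks with no partner, 589 (18.6%, interval 17.3 to 20.01%) lay within 5 kb of a mimosine peak and 720 (22.7%) lay over 100 kb away, with a median gap of 29859 bp. Along the chromosomes, 1685 of them (53.2%) stood alone between HU peaks that had a partner. Runs of 3 or more in a row numbered 163 and held 600 peaks (18.96%). Because 24.3% of all HU peaks had no partner, some runs arise without any clustering, and clustering was not tested. The longest run was 13 peaks over 220 kb at chr6:28556639-28776638. These peaks scored from 53.5 to 253, with a median of 77.5 and a median width of 1329 bp. The HU peaks on either side of the run, at scores of 493 and 189, each had a mimosine partner. The next runs, of 7 peaks each, were at chr10:31623311-32050298 and chr6:27247855-27436816. Runs of 6 included chr17:62615051-62641573, which was packed into 26.5 kb, and chr3:67051293-67698580, which spread over 647 kb.

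Both chromosome 6 runs lay in the window from 25 to 30 Mb, where 64 of 128 HU peaks (50%, interval 41.04 to 59.0%) had a partner, against 457 of 601 (76.0%, 72.4 to 79.4%) on the rest of chromosome 6. HU peaks in the window had a median score of 191, against 541 on the rest of the chromosome. Within score bands the shares were closer, least so from 100 to under 200. Below 100 they were 5.71% in the window and 6.02% outside it, from 200 to under 500 they were 85.7% and 83.9%, and at 500 or more 100% in both. From 100 to under 200 they were 18.2% (6 of 33, interval 6.98 to 35.5%) and 33.3% (22 of 66, interval 22.2 to 46.0%). Median scores in that band were 153 in the window and 141 outside it. The intervals overlap, and the difference was not tested.

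Recovery differed little between chromosomes once score was taken into account. It ran from 71.5% on chromosomes 4 and 6 to 83.9% (interval 80.7 to 86.8%) on chromosome 16. Chromosome 16 also had the smallest share of HU peaks scoring below 100, at 10.1%, and a median HU score of 668. If each HU peak had the recovery of its score group over all autosomes, chromosome 16 would stand at 81.4%, chromosome 4 at 72.9% and chromosome 6 at 72.9%. The largest differences from this score-based share were -2.75 points on chromosome 5 and 2.63 points on chromosome 21 (observed minus score-based). At scores of 200 or more, recovery lay between 93.9% on chromosome 18 and 97.9% on chromosome 21. Chromosome 19 had a low median HU score of 421 and a recovery of 73.4%, beside a score-based share of 72.7%.

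**Figure D4:**
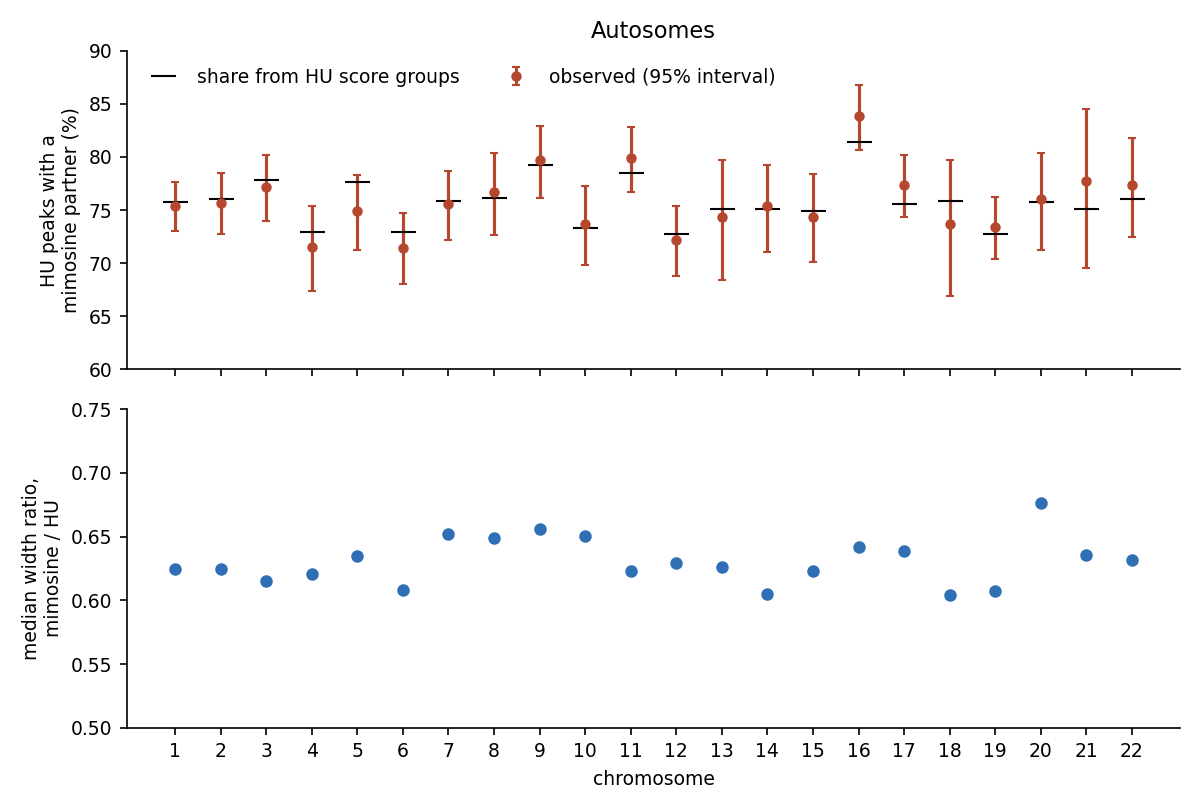
Top, percentage of HU peaks with a mimosine partner on each autosome with its 95% interval (points), and the share its peaks would have from the recovery of their score groups over all autosomes (bars); the axis starts above 0. Bottom, median mimosine to HU width ratio in exclusive pairs. Chromosome 16 is the highest at 83.9% beside a score-based 81.4%, and the ratios stay between 0.605 and 0.677.

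On every autosome the mimosine peak was typically the narrower of a pair. The median width ratio was lowest on chromosomes 18 and 14, both at 0.605, and highest on chromosome 20, at 0.677. The median width difference lay between 1049 bp on chromosome 22 and 1322 bp on chromosome 8.

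Crowding went with lower recovery in the raw shares, and scores moved with it. HU peaks under 5 kb from another HU peak had a partner in 64.6% of cases (1620 of 2508), against 78.0% at 5 to 50 kb and 79.3% at 50 to 500 kb. Peaks under 5 kb from another had a median score of 367, against 565 and 631. The score-based share for the crowded peaks was 65.6%, so observed minus score-based was -1.01 points. Isolated peaks, 500 kb or more from another, also stood lower, at 71.4% (195 of 273), beside a score-based share of 72.1% and a median score of 443.

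Single windows differed from their score-based share in both directions. Over the 249 windows of 5 Mb, the observed minus score-based share had an interquartile range of -3.03 to 2.84 points and ran from -17.95 to 12.7. The window on chromosome 7 from 80 to 85 Mb was again the lowest, with 38.2% observed and 56.2% from scores. It was followed by chromosome 11 from 30 to 35 Mb, with 75% and 89.4%, and chromosome 4 from 80 to 85 Mb, with 51.9% and 65.7%. The highest was chromosome 3 from 110 to 115 Mb, with 81.0% observed and 68.2% from scores. Each of these windows held 20 to 34 HU peaks, so 1 peak moved the share by several points.

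Some HU peaks held several mimosine peaks and are called broken HU peaks below, with no order in time implied. Of the 9875 HU peaks with a partner, 1143 (11.6%, interval 10.95 to 12.2%) held 2 or more, and together they took 2456 mimosine peaks. Most held 2 (1020 peaks), 96 held 3, 16 held 4, 5 held 5, 3 held 6 and 3 held 7. The share rose with width, from 6.82% of partnered HU peaks of over 2 to 4 kb to 17.1% at over 4 to 6 kb, 30.3% at over 6 to 10 kb and 69.1% (105 of 152) above 10 kb. The gaps between neighbouring mimosine peaks were short, with a median of 116 bp (interquartile range 38 to 271 bp), and 93.1% of the 1313 gaps were at most 1 kb. When peaks within 1 kb were merged first, the share fell to 1.95%, and with scores of 100 or more in both lists it was 5.16%.

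Broken HU peaks were strong ones. Their median score was 1237, against 767 for HU peaks in exclusive pairs. Mimosine peaks covered a median of 69.3% of a broken HU peak and 63.0% of an HU peak in an exclusive pair. Broken HU peaks were also wider, with a median of 4677 bp against 3240 bp, and the 2 classes were not matched for width. Among all partnered HU peaks, the median covered share was 62.1% at over 2 to 4 kb and 70.5% at over 6 to 10 kb. The pieces of broken HU peaks were unequal. The highest-scoring piece of each had a median score of 519 and the lowest-scoring piece 76.6.

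Among the 5 HU peaks holding the most mimosine peaks outside chromosome 8, strong and weak pieces stood side by side. At chr7:81140262-81168132, 27871 bp wide, 7 mimosine peaks covered 67.9%. Among them chr7:81154532-81164258 scored 3100 and chr7:81143316-81148578 scored 1835, while the other 5 scored from 53.9 to 191. At chr1:154932768-154950187, 7 mimosine peaks covered 77.7% of 17420 bp. The strongest, chr1:154939657-154943385, scored 2453 and the weakest 51.2. At chr3:115068795-115081995, 7 peaks covered 50.8%, led by chr3:115073830-115076340 with a score of 483. At chr7:81311705-81336548, 1 peak of 11916 bp scored 3100 and the other 5 scored at most 70.9. At chr3:101643901-101663167, 6 peaks covered 64.4%, in 2 groups on either side of an uncovered stretch, and the strongest scored 796 and 587.

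**Figure D5:**
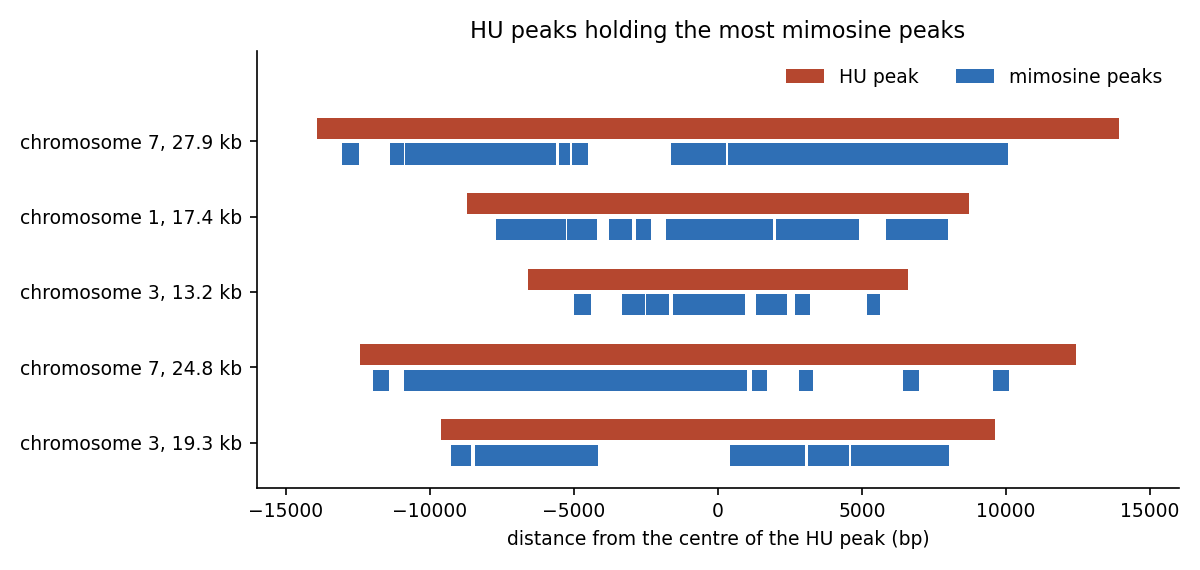
The 5 HU peaks outside chromosome 8 that held the most mimosine peaks (red bars), with those mimosine peaks under them (blue bars). The x axis is the distance from the centre of the HU peak in bp. The mimosine peaks cover from 50.8% to 77.7% of these HU peaks, and wide pieces stand beside pieces of about 0.5 kb.

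The opposite arrangement was nearly absent. Only 3 of 11235 mimosine peaks touched 2 HU peaks, and in each case the HU peaks lay within 20 bp of each other. They were chr11:44587114-44587924, chr17:61043462-61044845 and chr19:59085027-59086436, with mimosine scores of 74.4, 101 and 150.

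Mimosine peaks with no HU partner were few, weak and narrow. The 50 peaks had a median score of 58.8 (interquartile range 54.4 to 67.1) and a median width of 425 bp, against 283 and 1884 bp for mimosine peaks with a partner. Leaving out chromosome 8, the highest score among them was 104, at chr17:71087804-71088812, which was 1009 bp wide and 98430 bp from the nearest HU peak. The next were chr11:121233658-121234030 with a score of 78.7, chr2:91936991-91937314 with 78.2, chr1:58514045-58514237 with 76.2 and chr11:49455858-49456209 with 76.1. The last of these was 1451707 bp from the nearest HU peak. Of the 50 peaks, 9 lay within 5 kb of an HU peak.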

How the data were processed

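ChIP-seq peak lists of 2 BRPF3 libraries, 1 per condition, were compared. The submitters' processing notes list MACS 1.4.0, bedtools, SAMtools and Bowtie 0.12.8 without order or settings. The authors deposited 1 list per library, called against the HU IgG library per the file names. Each list gives start, end and a score per peak; the deposited score was read as 10 times the negative base-10 logarithm of the caller's p-value, from its lowest value of 50 and the peak names. The notes name hg18 and hg19. Peaks reach 249202041 on chromosome 1, past its end in hg18 and GRCh38, which left hg19; starts and ends count from 1. Reads and depth were not analysed here.

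Peaks overlapping by 1 bp or more were partners. Score-based shares give each HU peak the recovery of its score group over all autosomes. Values were computed with SciPy 1.17.1, NumPy 2.4.6 and pandas 2.3.3 under Python 3.11.15, and figures with matplotlib 3.10.9. Overlap, edge and splitting code was tested on simulated data. Named regions were, with chromosome 8 left out, up to 5 each of: highest-scoring peaks without partner in each list, lowest and highest width ratio, most mimosine peaks per HU peak, largest edge difference, mimosine peaks with several HU partners, longest runs without partner, and largest rank difference in each direction. Members and rules were chosen with earlier results of these data known. Alternatives were score limits, equal list lengths, other partner rules, merging, width limits and all chromosomes. Score-based shares, 5 Mb windows, gaps to neighbouring peaks and HU score limits of 100 and 200 against the whole mimosine list were added after seeing the data. Gene annotation and sequence of hg19 were not used here.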

Additional observations from a re-analysis of the deposited data

How the results depend on the processing

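The share of exclusive pairs with the mimosine peak inside the HU peak stayed within its interval under all 9 alternatives run for it. Alternatives are given in the order score of 100 or more in both lists, equal numbers of 5617 top-scoring peaks, and the HU list limited to the number of mimosine peaks, where they moved a value. HU peaks with a partner became 89.6% with equal numbers and 86.9% with the shortened HU list, and 77.8% with peaks within 1 kb merged, 56.0% under a reciprocal overlap of 50% and 73.5% with centres within 1 kb. With HU scores of 100 or 200 and more against the whole mimosine list, chosen after seeing the data, they were 87.8% and 96.1%. Mimosine peaks with a partner became 99.9%, 91.7% and 98.6%, then 96.8% without peaks wider than 10 kb, 65.0% under the reciprocal rule and 88.4% by centres. The median width ratio was 0.644 and 0.674 under the first 2, 0.638 merged, 0.665 reciprocal, 0.625 by centres and 0.617 with both scores below 3100. HU peaks holding several mimosine peaks were 5.16%, 2.15%, 10.7% without peaks wider than 10 kb and 1.95% merged; by construction merging joins pieces, and score limits drop weak pieces. Covered HU length was 54.6%, 60.8%, 59.6%, 56.2% on every chromosome, 55.8% without wide peaks and 56.8% merged. Reach per edge, 535 bp over both edges, was 558 and 603 bp under the first 2, 498 bp reciprocal and 557 bp by centres. Spearman's rho was 0.922, 0.880, 0.935, 0.936 on every chromosome, 0.936 without wide peaks, 0.934 merged, 0.943 reciprocal, 0.923 by centres and 0.919 with both scores below 3100. For the remaining shifts the cause was not tested. No paired analysis was possible because each condition had 1 library. Unknown read depth limits what an absent peak means.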

Other observations

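Chromosome X lay outside the comparison and was looked at after the autosomal values were known. It held 380 HU and 290 mimosine peaks, and 240 of the HU peaks (63.2%, interval 58.1 to 68.0%) had a mimosine partner. In its 201 exclusive pairs the mimosine to HU width ratio had a median of 0.495 (interquartile range 0.371 to 0.649), below the range of the 22 autosomes (0.605 to 0.677). Within bands of HU score the ratio was also lower on chromosome X in the bands with 20 or more pairs. Scores were not matched inside a band. Among autosomal pairs the median ratio was 0.487 in the fifth and 0.753 in the last of 20 score groups. From 100 to under 200, the median ratio was 0.404 over 23 pairs, against 0.443 to 0.526 over the 12 autosomes with at least 20 pairs. From 200 to under 500, the median ratio was 0.380 over 82 pairs on chromosome X, against 0.474 to 0.589 over the autosomes. At 500 or more it was 0.631 over 91 pairs, against 0.641 to 0.698. In that band the median HU width of the pairs was 3395 bp on chromosome X and 3777 bp on the autosomes. Recovery of chromosome X peaks did not lie on 1 side of the autosomes in every band. Below a score of 100 it was 8.47% (5 of 59, interval 2.81 to 18.7%), beside 6.24% on the autosomes, and from 100 to under 200 it was 27.7% (23 of 83, interval 18.4 to 38.6%), beside 32.8%. It was 78.3% (90 of 115, interval 69.6 to 85.4%) at scores from 200 to under 500 and 99.2% (122 of 123) at 500 or more, beside 86.9% and 99.8% on the autosomes.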
